A study of Mus musculus with 8 samples.

Results

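The 6 actin genes of the mouse (Acta1, Actc1, Acta2, Actb, Actg1 and Actg2) and its 4 tropomyosin genes (Tpm1, Tpm2, Tpm3 and Tpm4) were examined in the left ventricle. They were chosen by name and are 10 of the 55679 genes in the deposited table. All 10 were among the 19364 genes that passed a filter on low values (an average of 0.1 FPKM or more) and were tested. FPKM gives fragments relative to the length of the transcript and to all mapped fragments, so that levels of different genes are compared per length.

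The libraries came from male wild-type C57BL/6J mice whose age is not given in the sources used here. The 4 control mice received saline and the 4 ANG II mice received angiotensin II, a peptide that constricts vessels and raises blood pressure, at 1500 ng/kg/min. All mice carried an osmotic mini-pump under the skin for 7 days, and their hearts were rinsed with saline before the ventricle was taken. The labels give the genotype as wild type, and the samples are named below by group and replicate number. In these labels the extraction protocol names another source of RNA, CRC cells, while the titles and tissue labels say left ventricle. The study describes larger groups of biological replicates than the 4 analysed here.

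Actin is the protein of the thin filament, the cable on which myosin pulls. Actc1 (cardiac) and Acta1 (skeletal) encode the actins of the sarcomere, the contractile unit of striated muscle. Acta2 and Actg2 encode the smooth muscle actins of vessel walls and of the gut, and Actb and Actg1 encode the cytoplasmic actins of nearly all cells. Tropomyosin is a coiled coil that lies along actin and, with troponin, sets when myosin may bind. In the adult mouse ventricle Actc1 and Tpm1 are the main sarcomeric forms, and Acta1 is known as a gene of the fetal heart that is re-expressed in hypertrophy. Many genes of the family carry CArG boxes, the DNA motif bound by serum response factor (SRF), in their promoters.

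The promoters are shown for the 3 genes in which a CArG box was found, because this motif is shared by the pair of sarcomeric actins and a cytoplasmic actin and was not used to choose the genes. RefSeq windows of 250 bases before the transcription start (GRCm38.p6) were searched for the CArG consensus with no mismatch. The motif reads alike on both strands, and 482 of all 32851 windows held it, which is 1.47%. Windows were given for 8 of the genes, 9 windows in all, and 3 of these held a box. Acta2 and the tropomyosin genes, whose 4 genes have 5 windows, held none in these windows. Actb and Actg2 had no entry. The stretches below have 80 bases each and are written 5′ to 3′ on the strand of the gene, with the box in capitals.
Actc1, chr2:114052878-114052957, minus strand, box from 47 to 38 bases before the start: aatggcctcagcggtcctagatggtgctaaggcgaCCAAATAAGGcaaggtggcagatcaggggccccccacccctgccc
Acta1, chr8:123894804-123894883, minus strand, box from 73 to 64 bases before the start: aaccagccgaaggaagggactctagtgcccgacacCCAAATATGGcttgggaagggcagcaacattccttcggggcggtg
Actg1, chr11:120348541-120348620, minus strand, box from 90 to 81 bases before the start: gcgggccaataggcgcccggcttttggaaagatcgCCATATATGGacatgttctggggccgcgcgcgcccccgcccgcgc

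In ANG II ventricles 7 of the 10 genes were called higher and 0 were called lower. To be called, a gene needed a Benjamini-Hochberg adjusted p under 0.05 in limma and a log2 fold change beyond 0.5 in either direction on the log2(FPKM + 1) scale. Among all genes tested, 14.0% were called higher and 1.41% lower. The called genes were Acta1, Actb, Actg1, Actg2, Tpm2, Tpm3 and Tpm4. Actc1 and Acta2 did not pass, and Tpm1 passed the adjusted p but not the fold threshold. The median log2 fold change of the 10 genes was 0.63, beside 0.15 for all genes tested. In 6 genes every ANG II library lay above every control library, and in 1 gene, Tpm1, every ANG II library lay below; among all genes tested, 28.7% did not overlap with ANG II higher and 5.06% with ANG II lower. The directions of the called genes were the same under the other scalings of the libraries that were tried, but several of the calls were not.

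**Figure D1:**
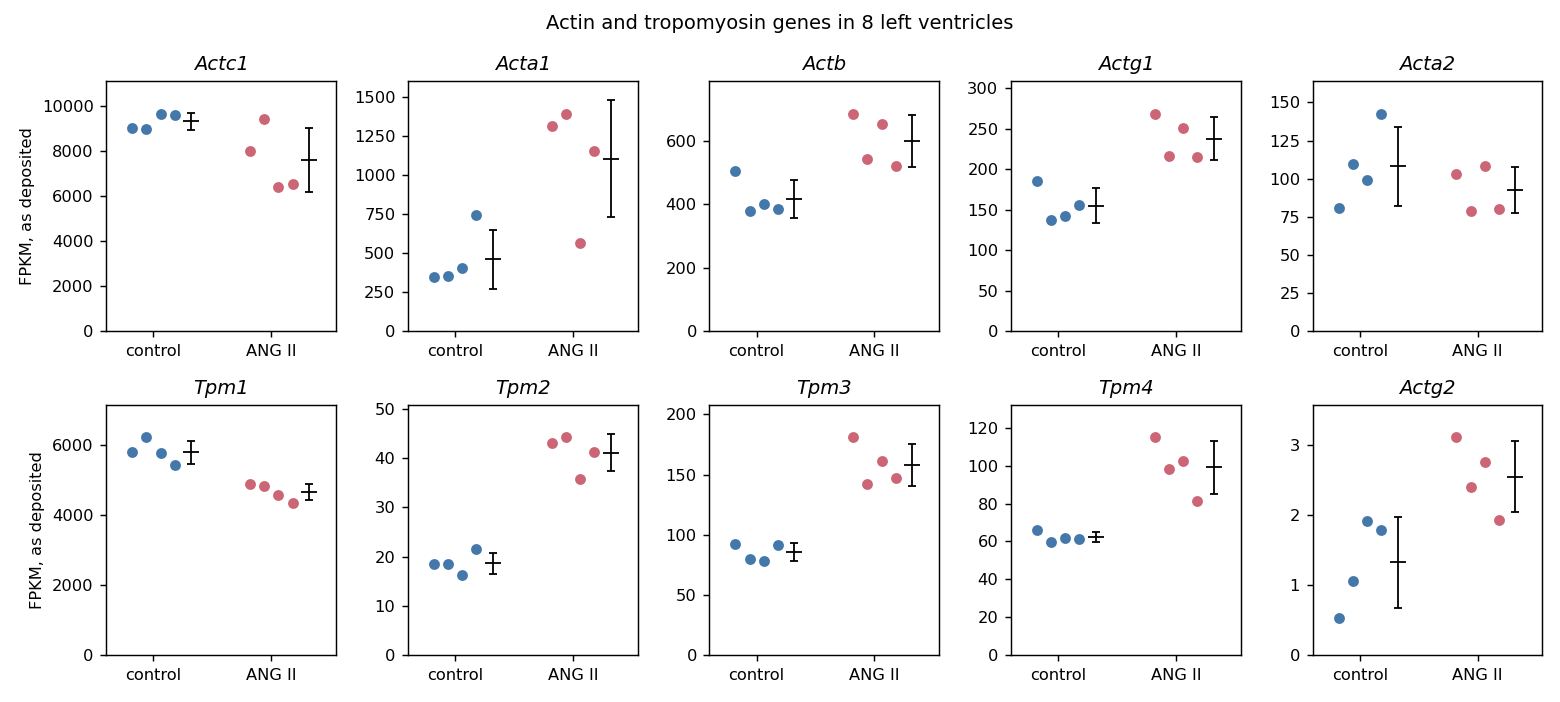
FPKM as deposited of the 6 actin and 4 tropomyosin genes in each library (4 control in blue, 4 ANG II in red), each panel with its own linear axis starting at 0; the black marks are the mean and SD of the 4 libraries. The groups are apart for Actb, Actg1, Actg2, Tpm1, Tpm2, Tpm3 and Tpm4, and they overlap for Acta1, where control 4 lies above ANG II 3, and for Actc1 and Acta2.

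The depth read back from the steps of the FPKM values was 14455660 to 16564831 fragments per library. The share of fragments from mitochondrially encoded genes was 26.3 to 27% in control and 19.2 to 21.8% in ANG II libraries; FPKM of all other genes are relative to a total that includes these fragments. Rescaled without them and the 10 top genes, 4 of the 10 actin and tropomyosin genes were called higher and 0 lower, beside 10.2% and 2.84% of all genes tested. The median log2 fold change over all genes was 0.15 as deposited and 0.00 after median-of-ratios scaling, a scaling that sets the typical gene to no change. The share of higher genes among all calls was 90.8% as deposited, 67.5% after median-of-ratios scaling and 59.0% after quantile normalization. As a check of the tissue, the summed FPKM of 12 cardiomyocyte markers was 49720 to 50990 in control and 39030 to 41110 in ANG II libraries, the highest of the marker lists. In bulk tissue, fewer cells of a type and less RNA per cell cannot be told apart.

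Of the sarcomeric actins, Acta1 was called and Actc1 was not. Acta1 (ENSMUSG00000031972, GRCm38 chromosome 8, 123891769 to 123894751, minus strand) rose in ANG II. It stood at 348.1, 355.4, 403.9 and 743.5 FPKM in control 1 to 4 and at 1314, 1396, 563.8 and 1157 FPKM in ANG II 1 to 4. ANG II 1, 2 and 4 lay above all controls, while ANG II 3 lay below control 4, so the groups overlap. The means were 463 ± 189 FPKM in control and 1108 ± 376 in ANG II (n = 4, SD), a ratio of 2.39. The log2 fold change was 1.25 (SE 0.32, adjusted p = 0.0126 in limma), and it was called under each of 17 alternatives, with adjusted p between 0.00261 and 0.0466. The exact two-sided permutation test of the FPKM values alone gave p = 0.0571. With the mean over libraries as the measure, Acta1 moved from rank 134 to rank 49 among all genes of the table.

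Actc1 (ENSMUSG00000068614, chromosome 2, 114047282 to 114053548, minus strand), the main cardiac actin, was not called. It stood at 8990, 8985, 9644 and 9570 FPKM in control 1 to 4 and at 7995, 9427, 6398 and 6521 FPKM in ANG II 1 to 4. ANG II 3 and 4 lay far below the controls, ANG II 1 below them by less, and ANG II 2 among them. The mean was 9297 ± 359 FPKM in control and 7585 ± 1426 in ANG II (n = 4, SD). The coefficient of variation was 3.86% in control and 18.8% in ANG II. Its log2 fold change was -0.31 (SE 0.13, adjusted p = 0.0976 in limma). With median-of-ratios scaling it was -0.54 (adjusted p = 0.0216) and passed both thresholds, and with quantile normalization its sign was turned, 0.13 (adjusted p = 0.456). Actc1 ranked 9 among all genes in control and 8 in ANG II. Quantile normalization gives a rank the same value in every library, so a gene that keeps its rank can show little change there. In all other alternatives the log2 fold change of Actc1 was negative. It was -0.46 (adjusted p = 0.0291 in limma) when rescaled without mitochondrially encoded and top genes. Actc1 was called in 1 of the 17 alternatives, and its adjusted p ran from 0.0194 to 0.456. The size and the call of its change thus depend on the processing.

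The make-up of the sarcomeric pair is a ratio of genes within a library, which scaling by a single factor per library leaves as it is. Quantile normalization is not of this kind, and no share was computed with it; the log2 fold changes of Acta1 and Actc1 lie closer together there (1.13 and 0.13) than as deposited (1.25 and -0.31). Acta1 was 3.73, 3.81, 4.02 and 7.21% of the summed FPKM of Acta1 and Actc1 in control 1 to 4, and 14.1, 12.9, 8.10 and 15.1% in ANG II 1 to 4. The groups did not overlap, although control 4 and ANG II 3 lay close to each other. The mean share was 4.69 ± 1.68% in control and 12.5 ± 3.10% in ANG II (n = 4, SD), a difference of 7.86 percentage points (p = 0.0286 by a two-sided exact permutation test, which with 4 against 4 libraries can give no smaller value). By fragments instead of FPKM the mean share was 5.401% in control and 14.3% in ANG II. The sum of the pair was 9338, 9341, 10050 and 10310 FPKM in control 1 to 4 and 9308, 10820, 6962 and 7678 FPKM in ANG II 1 to 4, with the highest and the lowest value both in ANG II. ANG II 3, which had the lowest Actc1, also had the lowest Acta1 of its group.

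The cytoplasmic actins were higher in ANG II as deposited. Actb (ENSMUSG00000029580, chromosome 5, 142903115 to 142906754, minus strand) stood at 505.2, 378.9, 399.5 and 383.5 FPKM in control 1 to 4 and at 685.3, 542.0, 651.6 and 518.9 FPKM in ANG II 1 to 4. The groups did not overlap, but the lowest ANG II library was only 1.03 times the highest control, control 1. The mean was 417 ± 59.6 FPKM in control and 599 ± 81.4 in ANG II (n = 4, SD). In limma its log2 fold change was 0.52 (SE 0.12, adjusted p = 0.00653 in limma), just above the fold threshold, and Actb was not called in 7 of the 17 alternatives. These were the median-of-ratios (0.29, adjusted p = 0.0774), quantile and mitochondria-free scalings and the fits without ANG II 1 (0.46), ANG II 3 (0.48), control 2 (0.48) or control 4 (0.49), which kept an adjusted p of 0.0256 or less and missed the fold threshold. Actb is widely used as a reference gene on the assumption of a constant level; here its mean FPKM differed 1.44-fold between the groups.

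Actg1 (ENSMUSG00000062825, chromosome 11, 120345690 to 120348542, minus strand) is the other cytoplasmic actin. It stood at 185.2, 137.9, 141.7 and 155.8 FPKM in control 1 to 4 and at 268.6, 216.8, 251.1 and 214.5 FPKM in ANG II 1 to 4. All ANG II libraries lay above all controls, and in each group replicate 1 was the highest for both genes. Actg1 had a log2 fold change of 0.62 (SE 0.11, adjusted p = 0.00159 in limma). It fell to 0.39 (adjusted p = 0.017) with median-of-ratios scaling and was then under the fold threshold, as it was with quantile normalization (0.43) and rescaled without mitochondrially encoded and top genes (0.47). The ratio of Actb to Actg1 within a library was 2.46 to 2.82 in control and 2.42 to 2.60 in ANG II. Of the 50-base words of Actg1 transcripts, 37.4% also occur in transcripts of other genes, chiefly in pseudogenes. The copy with most shared words, Gm12715, was listed at 0.580 to 1.93 FPKM, far below Actg1. Of the words of Actb, 9.12% are shared.

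Of the smooth muscle actins, Acta2 was not called and Actg2 was called at a low level. Acta2 (ENSMUSG00000035783, chromosome 19, 34241090 to 34255590, minus strand), which is also the usual marker of myofibroblasts, stood at 80.73, 109.7, 99.22 and 142.6 FPKM in control 1 to 4. In ANG II 1 to 4 it stood at 103.3, 78.88, 108.1 and 80.27 FPKM, within the range of the controls but for ANG II 2 and 4, which lay just below it. Acta2 had a log2 fold change of -0.20 (SE 0.17, adjusted p = 0.385 in limma), and was called under none of the 17 alternatives, in which it ran from -0.43 to -0.06. A change of this size could not be told from the spread between libraries. Of the myofibroblast markers other than Acta2 (Postn, Cthrc1, Lox, Fn1, Comp and Thbs4), 6 of 6 were called higher, beside 14.0% of all genes tested. Tagln, counted among the smooth muscle markers instead, was at a very low level and was not called (0.25, adjusted p = 0.0976 in limma). The summed level of the 6 was 67.27, 79.26, 43.97 and 89.96 FPKM in control 1 to 4 and 1291, 1358, 858 and 1045 FPKM in ANG II 1 to 4. Postn, a matrix protein secreted by activated fibroblasts, rose from 33.2 ± 8.28 to 667 ± 141 FPKM (n = 4, SD; log2 fold change 4.296, adjusted p = 2.01e-06 in limma). Of 10 smooth muscle markers, 2 were called higher (Cnn1 and Notch3) and 0 lower as deposited, beside 14.0% and 1.41% of all genes tested. With median-of-ratios scaling Notch3 was not called, and Smtn, a smoothelin of contractile smooth muscle, was called lower (-0.53, adjusted p = 0.000453 in limma; as deposited -0.30, adjusted p = 0.013). Their median log2 fold change was 0.24, and their summed level was 475 to 490 FPKM in control and 541 to 578 in ANG II. Myh11, the smooth muscle myosin heavy chain, was at 13.3 ± 2.66 and 13.6 ± 1.21 FPKM (n = 4, SD).

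Actg2 (ENSMUSG00000059430, chromosome 6, 83512905 to 83536265, minus strand) was near the bottom of the range of measurement. It stood at 0.530, 1.05, 1.92 and 1.79 FPKM in control 1 to 4 and at 3.11, 2.40, 2.75 and 1.92 FPKM in ANG II 1 to 4, which rests on 7, 14, 29 and 25 fragments and on 43, 35, 38 and 28 fragments. Control 3 and ANG II 4 were equal to 3 digits, and by fragments the groups overlap. Its log2 fold change was 0.65 (SE 0.21, adjusted p = 0.0378 in limma), but Actg2 was called in only 7 of the 17 alternatives, with adjusted p up to 0.292. With a pseudocount of 0.1 the log2 fold change was 1.02 (adjusted p = 0.0465) and with voom on the fragments 1.03 (adjusted p = 0.0375), both called. It was lost without control 1 or 2 and without ANG II 1, 2 or 3 (adjusted p of 0.0745 to 0.107). It was also lost with median-of-ratios scaling (0.50, adjusted p = 0.125), quantile normalization (0.36, adjusted p = 0.292), the rescaling without mitochondrially encoded and top genes (adjusted p = 0.0839), no filter (adjusted p = 0.0824) and the replicate block (adjusted p = 0.0691).

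Among the tropomyosins Tpm1 had a lower level in ANG II and the other 3 a higher one. Tpm1 (ENSMUSG00000032366, chromosome 9, 67022590 to 67049406, minus strand), the main tropomyosin of the sarcomere, stood at 5797, 6218, 5765 and 5414 FPKM in control 1 to 4 and at 4871, 4815, 4579 and 4351 FPKM in ANG II 1 to 4. Every ANG II library lay below every control, and the ANG II mean was 80.3% of the control mean. On the log2 scale the change was -0.32 (SE 0.08, adjusted p = 0.0123 in limma), under the fold threshold. Of all genes tested, 4.91% were lower with an adjusted p under 0.05 at any fold. With median-of-ratios scaling Tpm1 was called lower (-0.55, adjusted p = 0.00163), while with quantile normalization it was at -0.05 (adjusted p = 0.676). It ranked 12 among all genes in control and 15 in ANG II, so the limit of quantile normalization given for Actc1 holds for Tpm1 too.

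Tpm2, Tpm3 and Tpm4, which give tropomyosins of slow and smooth muscle and of the cytoskeleton, all rose. Tpm2 (ENSMUSG00000028464, chromosome 4, 43514711 to 43523765, minus strand) stood at 18.54, 18.41, 16.28 and 21.44 FPKM in control 1 to 4 and at 43.16, 44.24, 35.82 and 41.34 FPKM in ANG II 1 to 4. The lowest ANG II library was 1.67 times the highest control. The log2 fold change was 1.10 (SE 0.09, adjusted p = 3.09e-05 in limma), called under each of the 17 alternatives (0.88 to 1.17). None of the 50-base words of Tpm2 occurs in another gene.

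Tpm3 (ENSMUSG00000027940, chromosome 3, 90072649 to 90100902, plus strand) stood at 92.17, 80.00, 77.82 and 91.31 FPKM in control 1 to 4 and at 180.9, 142.1, 161.4 and 147.5 FPKM in ANG II 1 to 4. The lowest ANG II library was 1.54 times the highest control. Tpm3 had a log2 fold change of 0.88 (SE 0.09, adjusted p = 7.9e-05 in limma), and was also called under each alternative (0.65 to 0.93). Of its words, 23.2% are shared, chiefly with its retrocopy Tpm3-rs7, which was listed at 0.197 to 0.555 FPKM.

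Tpm4 (ENSMUSG00000031799, chromosome 8, 72134975 to 72153142, plus strand) stood at 65.82, 59.86, 62.04 and 61.06 FPKM in control 1 to 4 and at 115.0, 98.52, 102.4 and 81.15 FPKM in ANG II 1 to 4. The controls lay close together, and ANG II 4, the lowest of its group, was still above them all. The log2 fold change was 0.66 (SE 0.09, adjusted p = 0.000563 in limma), and it was not called in 2 of the 17 alternatives, median-of-ratios scaling (0.43, adjusted p = 0.00754) and quantile normalization (0.48, adjusted p = 0.00444), in which only the fold threshold was missed. Of its words 11.7% are shared, and 6.08% of its exons lie under a gene of the opposite strand, whose reads cannot be told apart without strand.

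**Figure D2:**
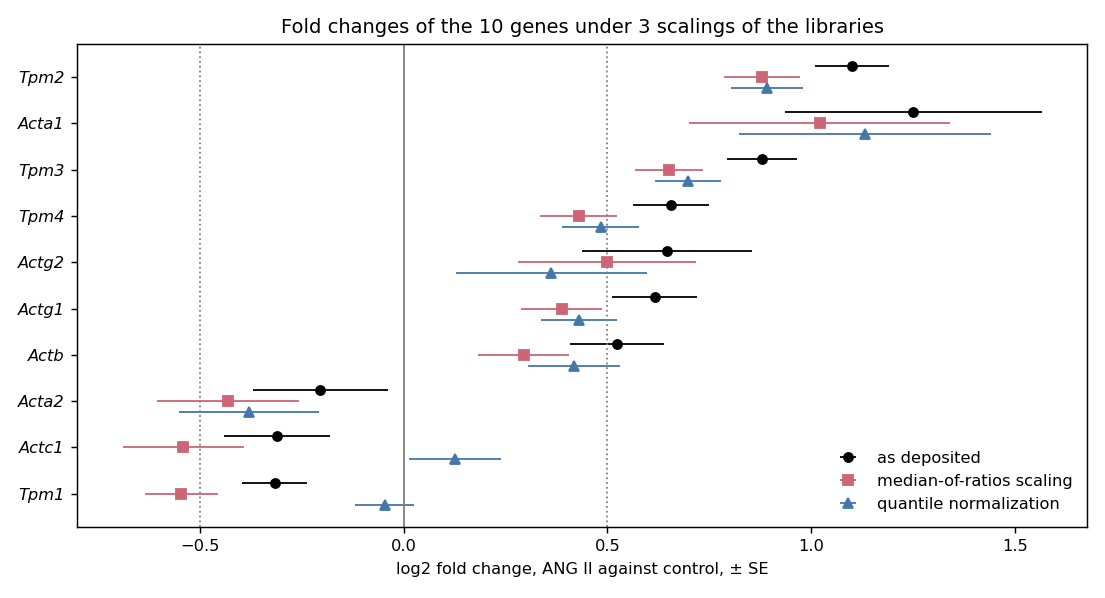
Log2 fold change of each gene (ANG II against control, horizontal axis, log2 units) with its SE, for the values as deposited (black circles), after median-of-ratios scaling (red squares) and after quantile normalization (blue triangles); dotted lines mark the fold threshold of 0.5 in either direction. Tpm2, Acta1 and Tpm3 stay beyond 0.5 in all 3 scalings, Tpm4, Actg1 and Actb cross it, and Actc1 runs from -0.54 to 0.13.

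After median-of-ratios scaling 3 of the 10 genes were called higher (Acta1, Tpm2 and Tpm3) and 2 lower (Actc1 and Tpm1), beside 8.63% and 4.16% of all genes tested. With quantile normalization 3 genes, again Acta1, Tpm2 and Tpm3, were called higher and 0 lower, beside 7.31% and 5.08% of all genes tested. The fold changes of Acta1, Tpm2 and Tpm3 were 1.02, 0.88 and 0.65 with the former and 1.13, 0.89 and 0.70 with the latter.

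The shares within each family are likewise free of scaling by a single factor per library, though not of quantile normalization, in which Tpm2 and Tpm1 were at 0.89 and -0.05 (as deposited 1.10 and -0.32). They are not independent of each other, since those of a family sum to 100%. In all, 11 shares were compared, and the p-values are not adjusted over them. Tpm1 was 97.2 ± 0.29% of the summed tropomyosin FPKM in control and 94.0 ± 0.40% in ANG II (n = 4, SD). Tpm2, Tpm3 and Tpm4 together made up 2.96, 2.48, 2.64 and 3.11% in control 1 to 4 and 6.51, 5.59, 6.14 and 5.84% in ANG II 1 to 4, a gap wider than the range of either group. Each of these 3 genes rose in share, Tpm2 from 0.314 to 0.831%, Tpm3 from 1.44 to 3.19% and Tpm4 from 1.04 to 2.00%. For all 4 tropomyosin shares the groups did not overlap (exact two-sided permutation test, p = 0.0286 each).

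Among the actins, Actc1 held 88.9, 90.1, 90.2 and 87.0% of the summed FPKM in control 1 to 4 and 77.1, 80.8, 80.2 and 76.8% in ANG II 1 to 4. The groups did not overlap, and the mean share was lower by 10.3 percentage points (difference -10.3, exact two-sided permutation test, p = 0.0286). The share of Acta1 in all actins was 4.39 ± 1.59% in control and 11.3 ± 2.92% in ANG II (n = 4, SD), again without overlap (exact permutation test, p = 0.0286). Actg1 rose from 1.49 to 2.53% (exact permutation test, p = 0.0286), but control 1 at 1.83% and ANG II 2 at 1.86% almost touched. Per length of the longest transcript the exact permutation test of this share gave p = 0.0571. Actb went from 4.01 to 6.38% with overlapping groups, since control 1 was at 4.998% and ANG II 2 at 4.65% (exact permutation test, p = 0.0571). Acta2 was at 1.03% in control and 0.993% in ANG II (exact permutation test, p = 0.857), and Actg2 at 0.0125 and 0.0269% (exact permutation test, p = 0.0286), on the few fragments given above. In ANG II 3 the smaller gain of Acta1 (7.07%) stood beside the highest Actb share, 8.17%.

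**Figure D3:**
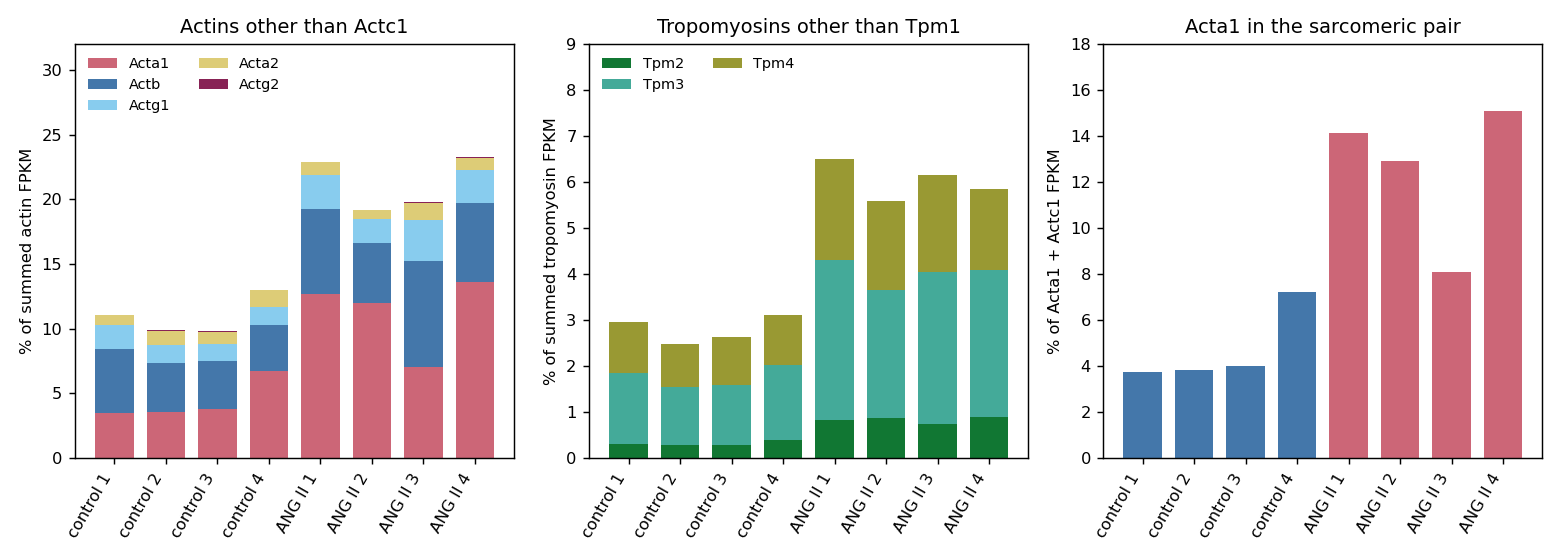
Left, the share of each actin other than Actc1 in the summed FPKM of the 6 actins per library; middle, the share of each tropomyosin other than Tpm1 in the 4 tropomyosins; right, Acta1 as a share of Acta1 and Actc1, blue for control and red for ANG II (vertical axes in percent, starting at 0). The stacks of tropomyosins reach 2.48 to 3.11% in control and 5.59 to 6.51% in ANG II, and the right panel runs from 3.73 to 7.21% in control and from 8.10 to 15.1% in ANG II.

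The summed level of the 6 actins was 10440 ± 485 FPKM in control and 9625 ± 1704 in ANG II, and that of the 4 tropomyosins 5964 ± 323 and 4952 ± 261 FPKM (n = 4, SD). The actin sums overlapped (9968 to 11000 and 7975 to 11660 FPKM), and the tropomyosin sums did not (5588 to 6376 and 4621 to 5210 FPKM). The ratio of the main forms, Actc1 to Tpm1, was 1.61 ± 0.14 in control and 1.62 ± 0.24 in ANG II (n = 4, SD), which is less apart than the libraries within a group.

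In control libraries the order of mean levels was Actc1, Tpm1, Acta1, Actb, Actg1, Acta2, Tpm3, Tpm4, Tpm2 and Actg2. The ranges of Acta1 and Actb overlapped, and so did those of Actg1 with Acta2 and of Acta2 with Tpm3. Within a library, however, Actg1 was above Acta2 in 4 of 4 controls, whereas Acta2 was above Tpm3 in 3 of 4 and Acta1 above Actb in 2 of 4. In ANG II the order differed in that Acta2 came after Tpm4, with overlapping ranges, and that Actg1 and Tpm3 lay apart from their neighbours. Acta1 and Actb overlapped there too, in that ANG II 3 had less Acta1 than Actb. These orders hold for FPKM as deposited and depend on the transcript length used for each gene. Per length of the longest transcript, the mean control share in the tropomyosins was 1.23% for Tpm4 and 1.21% for Tpm3, the reverse of the order above.

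Of 17 genes for capping and assembly of the thin filament in muscle, 2 were called higher and 1 lower, beside 14.0% and 1.41% of all genes tested. Their median was 0.08 on the log2 scale. With median-of-ratios scaling the counts were 2 and 3, beside 8.63% and 4.16% of all genes tested. Xirp2, an actin-binding protein of the intercalated disc, rose from 174 ± 23.7 to 369 ± 75.5 FPKM (n = 4, SD; log2 fold change 1.07, adjusted p = 0.000459 in limma). Capza1, a subunit of the protein that caps the barbed end, rose by a log2 fold change of 0.74 (adjusted p = 7.93e-05 in limma), but 61.4% of its words are shared with other genes. Tmod4, a tropomodulin of the pointed end, fell by 0.66 on the log2 scale (adjusted p = 0.00463 in limma). Nebl, the cardiac nebulette, was under the fold threshold at -0.28 (adjusted p = 0.00184 in limma), and with median-of-ratios scaling at -0.51, past it.

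Of 5 troponin genes of cardiac and slow muscle, which hold tropomyosin in place, 0 were called higher and 2 lower. Among all genes tested these shares were 14.0% and 1.41%. The fast skeletal troponins Tnnt3, Tnni2 and Tnnc2 were counted among the skeletal muscle markers instead, and of these Tnnt3 was called higher. Tnni3, the cardiac troponin I, was at 5522 ± 254 FPKM in control and 3697 ± 411 in ANG II (n = 4, SD; log2 fold change -0.58, adjusted p = 0.00102 in limma). Tnnt1, the slow skeletal troponin T, had a log2 fold change of -0.88 (adjusted p = 0.000102 in limma). With quantile normalization Tnni3 was at -0.37, under the fold threshold.

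Of 29 genes that turn over and crosslink actin, some of them mainly in white blood cells, 20 were called higher and 0 lower, and their median log2 fold change was 0.67. With median-of-ratios scaling the counts were 11 higher and 1 lower. Among all genes tested, 14.0% were called higher and 1.41% lower as deposited, and 8.63% and 4.16% with median-of-ratios scaling. The largest were Capg, a capping protein of macrophages (9.73 ± 1.91 to 39.2 ± 5.81 FPKM, SD, n = 4; log2 fold change 1.91, adjusted p = 1.99e-05 in limma), Lcp1, the plastin of white blood cells (1.64), and Coro1a, a coronin of white blood cells (1.39). Of the 9 subunits of Arp2/3, the complex that starts branches on actin filaments, 7 were called higher and 0 lower, with Arpc1b (1.17), Arpc5 (0.79) and Arpc4 (0.75) in front; 3 were called with median-of-ratios scaling. Of 6 non-muscle myosin II genes, 4 were called higher in either scaling, led by the heavy chain Myh10 (0.85) and the light chains Myl6 (0.82) and Myl9 (0.77).

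Of 14 genes for SRF, its cofactors and target genes, 7 were called higher and 0 lower, and 3 higher with median-of-ratios scaling. Among all genes tested, 14.0% were called higher and 1.41% lower as deposited, and 8.63% higher with median-of-ratios scaling. Srf itself was at 96.9 ± 9.95 FPKM in control and 89.4 ± 8.79 in ANG II (n = 4, SD; log2 fold change -0.12, adjusted p = 0.369 in limma). The cofactor Mkl1, which leaves free actin monomers to join SRF in the nucleus, rose by a log2 fold change of 0.64 (adjusted p = 0.000584 in limma), from 4.302 to 7.291 FPKM. With median-of-ratios scaling (0.45) and quantile normalization (0.33) it was under the fold threshold and not called. The largest changes were those of Cnn1, a calponin of smooth muscle (1.18), Tagln2, a calponin-like protein (0.98), and Myl9.

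**Figure D4:**
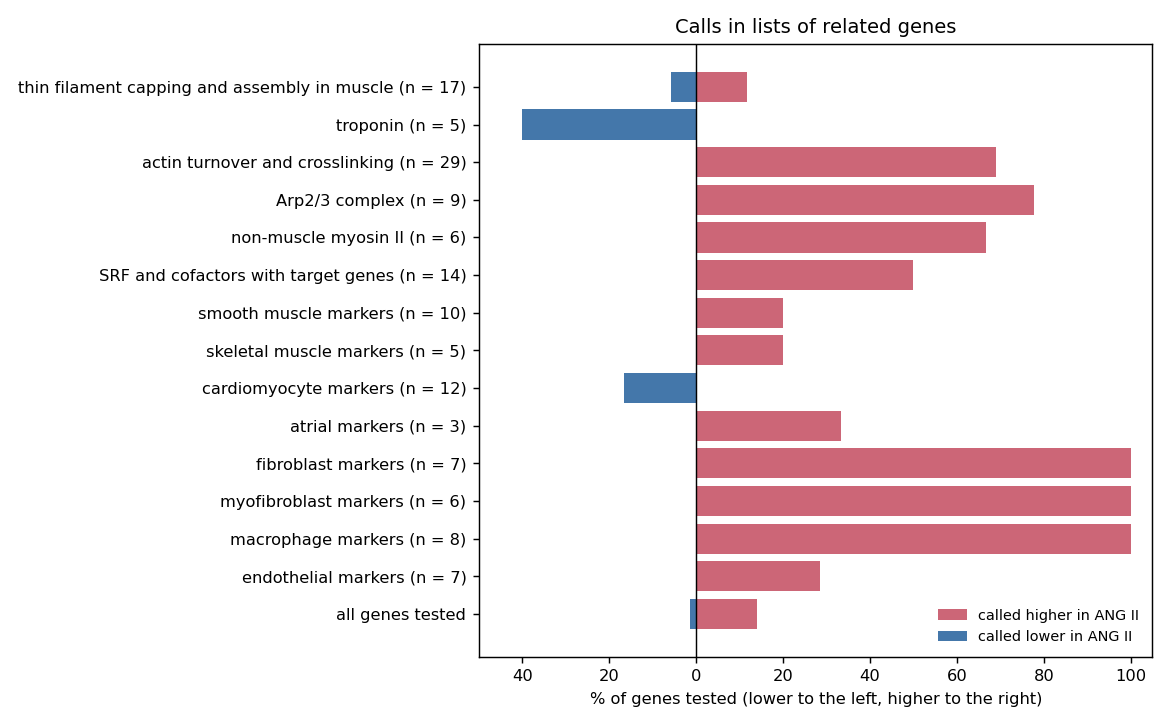
Share of the tested genes of each list that were called higher (red, to the right) or lower (blue, to the left) in ANG II as deposited, in percent of the genes tested, with all genes tested at the bottom (14.0% higher, 1.41% lower). The fibroblast, myofibroblast and macrophage markers reach 100%, the actin turnover, Arp2/3 and non-muscle myosin lists have 20 of 29, 7 of 9 and 4 of 6 genes to the right, and the troponin and cardiomyocyte lists hold genes called lower and none called higher; the fast skeletal troponin Tnnt3, called higher, is in the skeletal muscle list.

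Markers of fibroblasts and macrophages were higher in ANG II, and most of those of endothelial cells were not called. Such cells also express the cytoplasmic actins and Tpm3 and Tpm4. Among all genes tested, 14.0% were called higher and 1.41% lower as deposited, and 8.63% and 4.16% with median-of-ratios scaling. All 7 fibroblast markers were called higher as deposited (6 with median-of-ratios scaling, 5 with quantile normalization; median log2 fold change 1.76, summed level 501 to 751 FPKM in control, 2770 to 3245 in ANG II), as were all 8 macrophage markers (1.41, 292 to 369 and 658 to 923 FPKM). Of 7 endothelial markers, 2, Vwf and Pecam1, were called higher as deposited and not with median-of-ratios scaling (median of the list 0.23, 393 to 445 and 449 to 531 FPKM). Only 1 was called without ANG II 1, ANG II 2 or ANG II 3. The part of these cell types in the changes of the actins and tropomyosins was not tested. Of 12 cardiomyocyte markers, 0 were called higher and 2 lower, Tnni3 and Myh6, the main myosin heavy chain of the adult mouse ventricle (-0.55, adjusted p = 0.00126 in limma). With median-of-ratios scaling 4 were called lower, and with quantile normalization 1, Myh6 then being at -0.10 and Tnni3 at -0.37, neither called. With a library left out, 4 were called lower without ANG II 3 and 3 without control 4.

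Skeletal muscle, in which Acta1 is the main actin, was checked by its own markers. Of 10 markers, 5 passed the filter and 1 was called higher, beside 14.0% of all genes tested. Their summed level was 4.43 to 4.82 FPKM in control and 5.81 to 8.47 in ANG II. Myh4 and Tnnc2, of fast fibres, were listed at 0 in all libraries, but 74.0% of the Tnnc2 exons are covered by an opposite-strand gene. The part of skeletal muscle in the level of Acta1 was not tested. The called gene was Tnnt3, the fast skeletal troponin T (0.728 ± 0.27 to 3.29 ± 1.20 FPKM, SD, n = 4; log2 fold change 1.28, adjusted p = 0.00186 in limma). Of 4 atrial markers 3 passed the filter and 1 was called, Sln, a small regulator of the calcium pump (1.69, adjusted p = 0.0291 in limma, and 0.0508 with median-of-ratios scaling). Myl7 (2.38) and Myl4 (2.23) were not called (adjusted p = 0.0557 each in limma). The count of called atrial markers was not stable, being 0 without ANG II 3 and 3 with voom on the fragments. The atrial markers had summed levels of 48.8, 47.4, 1.16 and 20.4 FPKM in control 1 to 4 and 126, 66.3, 231 and 52.5 FPKM in ANG II 1 to 4. Every ANG II library thus had a higher atrial level than every control, as it had a higher share of Acta1 in Acta1 and Actc1. Within the groups the orders differed. The highest atrial level was in ANG II 3, which had the lowest Acta1 of its group. The 3 controls with low Acta1 included the highest and the lowest atrial level of the controls. The part of atrial tissue in these values was not tested.

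The genes whose profile over the 8 libraries was most like that of 3 chosen members were sought among the 6668 genes averaging 10 FPKM or more, by the root mean square difference of log2 values centred on the control mean. For Acta1 these were Adamtsl2 (0.29), Cnksr1 (0.30) and Uck2 (0.37). Adamtsl2 went from 10.6 ± 2.05 to 29.4 ± 6.70 FPKM (n = 4, SD). Cnksr1, at 5.33 FPKM in control and 15.2 in ANG II, reached the average of 10 FPKM only through ANG II. For Actc1 they were Pm20d2 (0.07), Ak4 and Tufm (both 0.09), and for Actb they were Mob1a (0.09), Txndc17 (0.10) and Pold3 (0.10). The larger distances for Acta1 go with its larger spread between libraries, and the measure is a description over libraries that share their groups.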

How the data were processed

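Messenger RNA of 8 samples labelled as left ventricle was sequenced. The authors deposited 1 table of FPKM values per gene and library; the processing notes name Bowtie2, HISAT and RSEM without a role, and the genome build, annotation and use of strand are not given in the sources used here. The values were tested as deposited with limma 3.58.1 (R 4.3.3; lmFit, then trended eBayes) on log2(FPKM + 1), for all genes averaging 0.1 FPKM or more, with no covariate and no replicate block. P-values were two-sided and Benjamini-Hochberg adjusted over all 19364 genes. On this scale changes of lowly expressed genes come out too small.

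FPKM multiplied by the mean transcript length of GENCODE M21 (GRCm38) fell on whole fragments (within 0.05) for 98.1 to 98.5% of values under 60 fragments, which gave the depth per library. Gene positions are from that annotation, and 50-base words of each gene were searched in the transcripts of all others. Shares are FPKM of a gene over the sum of its family in the same library, compared by an exact permutation test over all 70 allocations. Lists were counted by calls, with no set test.

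The genes, lists and rules were chosen with earlier results of these data known. The text names the 10 genes, up to 3 called genes per list with the largest absolute log2 fold change, defining markers, and the 3 most alike genes of Acta1, Actc1 and Actb; Srf, Mkl1, Nebl, Smtn and Postn were chosen after their values were seen. Alternatives changed the pseudocount, the filter, the scaling, the variance trend, the fold threshold, the length used for shares and the unit (voom on recovered fragments), added the replicate block, or left out each library. The fit was tested on simulated data. Tables and tests were made with scipy 1.17.1, pandas 2.3.3 and numpy 2.4.6 in Python 3.11.15, and figures with matplotlib 3.10.9.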

Additional observations from a re-analysis of the deposited data

Results flagged for a closer look

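In 42 groups of 4 values (FPKM and shares of the 10 genes per group) 4 held a library that stood far from the others by Dixon's criterion for 4 samples; chance flags about 1 group in 20. Acta1 was at 743.5 FPKM in control 4 against 348.1, 355.4 and 403.9 FPKM in the other controls, a gap of 0.859 of the range. The same library accounts for both shares that stood apart. Acta1 was 6.76% of all actins in control 4 against 3.44, 3.57 and 3.78% (0.899 of the range), and 7.21% of Acta1 and Actc1 against 3.73, 3.81 and 4.02% (0.916 of the range). Actb was at 505.2 FPKM in control 1 against 378.9, 383.5 and 399.5 FPKM (0.837 of the range).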

How the results depend on the processing

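The number of the 10 genes called was 7 as deposited, 5 after median-of-ratios scaling, 3 after quantile normalization, 4 when libraries were rescaled without mitochondrially encoded and the 10 top genes, 6 without the filter, 8 by adjusted p alone and 5 to 7 with a library left out (5 without ANG II 1, ANG II 3 or control 2). Over all genes the count was 2981, and 795 at a fold threshold of 1. The log2 fold change of Actc1 turned to 0.13 with quantile normalization. The difference of the Acta2 share ran from -0.159 to 0.0679 percentage points with a library left out, and was above 0 without control 4 (0.0508) and without ANG II 2. The difference of the share of Acta1 in Acta1 and Actc1 was 7.01 to 9.34 percentage points with a library left out, each at the smallest exact p that 3 against 4 libraries allow, 0.0571. The Actg1 share gave an exact p of 0.0571 per length of the longest transcript, an alternative chosen after seeing the data. The cause of these changes was not tested.

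Replicate numbers did not pair the libraries: correlations of same-numbered deviations were -0.0163, 0.062, -0.032 and -0.00929. With the replicate block 6 of the 10 genes, 2968 genes in all and 68 list genes (68 without it) were called, and the difference of the Acta1 share stayed 7.86 percentage points, with an exact sign-flip p of 0.125, the smallest that 4 pairs allow. Called list genes were 53 with median-of-ratios scaling, 51 with quantile normalization and 60 when rescaled. Depth limits Actg2 most, with 7 to 43 fragments; counting intervals cover counting error only.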

Other observations

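Tagln, an actin-binding protein of smooth muscle and an SRF target, was at 0.0325 ± 0.0376 FPKM in control and 0.233 ± 0.157 in ANG II (n = 4, SD), although Acta2 stood at about 1% of all actin FPKM in the same libraries. Of the exons of Tagln, 67.9% lie under genes of the opposite strand.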
